A study of Rattus norvegicus with 4 samples.

Results

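Latexin, encoded by Lxn, was 1 of 10 genes that could be named on the arrays, and it was measured in 16 wells. These are all the wells that the platform annotation assigns to Lxn among 28800 probes. The gene was chosen by its measured mean over these wells, which stood apart from those of the other named genes when the sign of the ratio was turned with the dye. Its values in that contrast are therefore given as a description, with no test. Over 11 of the 16 wells the log2 ratio had an SD of 0.03 to 0.25 between wells of an array, and its mean was farthest from 0 on the array of obese rat 3 and lean rat 4, at 0.54 as deposited. The other 5 wells held values of a kind typical of very dim spots and lay up to 4.00 from 0 on the log2 scale.

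Latexin is a small cytosolic protein that binds and inhibits metallocarboxypeptidases of the A type, enzymes that trim amino acids from the C-terminal ends of proteins and peptides. It was first described as a marker of neurons in the lateral neocortex of the rat, and in the mouse it is known as a regulator of the number of blood stem cells. Its fold is built from cystatin-like domains, and its nearest relative in mammals is the product of Rarres1. In the GRCr8 gene table Lxn (gene ID 59073) lies within the span of Gfm1, which encodes a mitochondrial translation elongation factor, and Rarres1 is its next protein-coding neighbour on one side. The array accession of Lxn is absent from that table, so the match was made by symbol. Probe sequences were not used here, so which part of the transcript the wells detect is unknown.

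Right atrium of SHHF rats, a spontaneously hypertensive strain prone to heart failure, was profiled on 4 2-colour oligonucleotide arrays of total RNA. Each array set 1 obese male against 1 lean male, all 10 months old. Obese rats of this strain are homozygous for the recessive corpulent (cp) allele of the leptin receptor gene. They are labelled with hypertension, metabolic syndrome and a dilated cardiomyopathy that begins at the age sampled, and lean rats (+/+ or cp/+) with hypertension and a later onset of cardiomyopathy. Obese rats 5 and 4 were labelled with Cy5 and set against lean rats 3 and 4, and obese rats 3 and 1 were labelled with Cy3 and set against lean rats 4 and 5. Lean rat 4 was thus on 2 arrays, so that 3 lean rats appear in the titles although 4 are stated in the design, and the extraction protocol names the left ventricle where the other labels name the right atrium. None of 29 marker genes of atrial or ventricular myocytes and of other cell types was named on the array, so the tissue could not be checked. Each array is named below by its obese rat, as obese-5 and so on. In such bulk tissue, fewer cells of a type and less RNA per cell cannot be told apart.

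The deposited values are log10 ratios of the channels, multiplied here by log2 of 10. The numerator is not given in the sources used here. If the columns hold Cy5 over Cy3, the sign of the obese-3 and obese-1 arrays must be turned to give obese over lean, and the mean after turning is called the alternating contrast. If the columns hold obese over lean, they are averaged as deposited, which is called the common contrast, and the alternating contrast then measures the dye. For the inverse ratios every sign below changes. On each array a value was called repeated where at least 5 probes held exactly the same number. Such values made up 13.4% to 16.7% of each array.

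The 16 wells of Lxn lie in columns 17 and 18 of plate 73, in rows C, D, G, H, K, L, O and P. All 4 wells in rows O and P and 1 of the 12 wells in the other rows, 73D17, held repeated values. Wells 73O17, 73O18, 73P17 and 73P18 held one on every array. Well 73D17 held one on the obese-5, obese-3 and obese-4 arrays, and on the obese-1 array its value was held by 2 probes. Just inside the limit, 73O18 on the obese-5 array and 73P17 on the obese-1 array shared their values with 5 probes in all, and just outside it, 73G18 on the obese-4 array was held by 2. The other 11 wells held 44 values, of which 43 were held by 1 probe. Among the other 9 named genes, 21 of 36 wells in rows O and P held a repeated value, against 27 of 108 in the other rows. Of all 28790 probes with a value on the obese-5 array, 18138 held no repeated value on any array. The rest held one on at least 1 array, so such wells are not particular to Lxn.

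Over the 11 wells without repeated values, the log2 ratio as deposited averaged 0.06 on obese-5 (SD 0.25 over wells), ranging from -0.55 to 0.33 with a median of 0.12. On obese-4 it averaged -0.20 (SD 0.06), from -0.32 to -0.12 with a median of -0.20. On obese-3 it averaged 0.54 (SD 0.03), from 0.49 to 0.58 with a median of 0.55. As deposited, the obese-3 array stood above the other 3, and no well of it overlapped with any well of the others. On obese-1 it averaged 0.06 (SD 0.06), from -0.05 to 0.15 with a median of 0.09. The obese-5 and obese-1 arrays overlapped around 0. Only the obese-3 and obese-4 arrays, which share lean rat 4, had 1 sign in all 11 wells, positive on obese-3 and negative on obese-4. As deposited, all 11 wells were highest on the obese-3 array, 10 were lowest on the obese-4 array, and 73L17 was lowest on the obese-5 array. After turning, 10 were lowest on the obese-3 array and 73L17 on the obese-5 array, while 8 were highest on the obese-5 array and 3 on the obese-1 array. The share of all probes with such an order of arrays is not given, so these counts and the lack of overlap only describe the wells. Nor was the order particular to Lxn. Over their wells without repeated values, Gapdh, Ldha and Rpn2 were also highest as deposited on the obese-3 array and lowest on the obese-4 array.

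**Figure D1:**
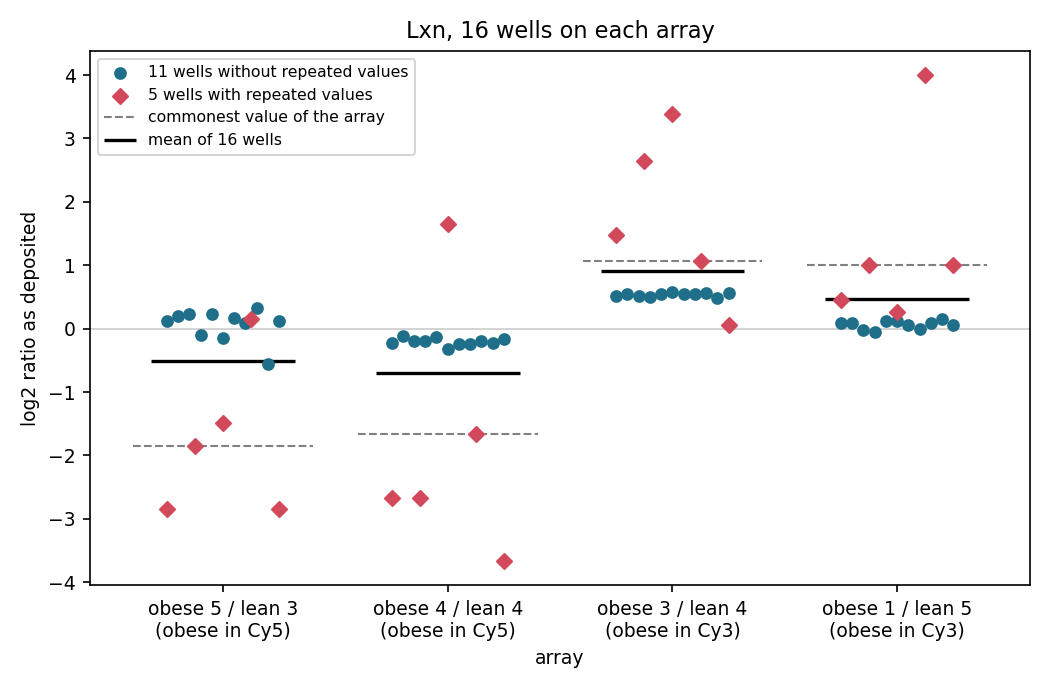
Log2 ratio as deposited (vertical axis) of the 16 wells of Lxn on each of the 4 arrays (horizontal axis), with 11 wells without repeated values as circles, 5 wells with repeated values as diamonds, the mean of 16 wells as a solid line and the commonest value of the array as a dashed line. The circles form a narrow band on the obese-4, obese-3 and obese-1 arrays. On obese-5 they spread from -0.55 (73L17) to 0.33. The diamonds spread from -3.67 to 4.00. Where obese RNA was in Cy5, the means of 16 wells lie below the circles, except for 73L17 on obese-5. Where it was in Cy3, they lie above the circles.

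The wells of a gene are repeats on 1 slide of the same RNA pair, so their spread measures the array and not the animals. The pooled SD between the 11 wells within an array was 0.13, against an SD of 0.31 between the 4 array means as deposited and 0.26 after turning. The within-array spread was widest on the obese-5 array, and wider there in column 17 than in column 18. There the 6 wells of column 18 averaged 0.21 (SD 0.07) and the 5 of column 17 averaged -0.12 (SD 0.27), with 73L17 at -0.55. Without 73L17, the mean of this array was 0.12 (SD 0.15, 10 wells). With 73L17 included, the difference of column 18 from column 17 was 0.33 on this array and 0.07, 0.02 and 0.0046 on the obese-4, obese-3 and obese-1 arrays. Over all probes without repeated values the same difference of medians was at most 0.04 on any array.

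**Figure D2:**
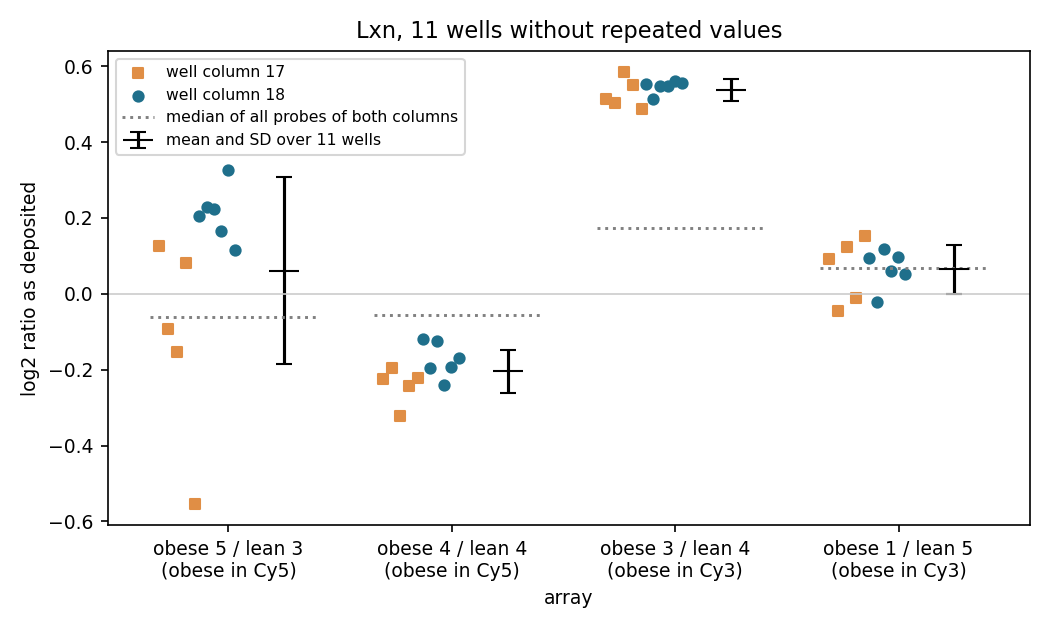
Log2 ratio as deposited (vertical axis) of the 11 wells of Lxn without repeated values on each array (horizontal axis), with column 17 as squares, column 18 as circles, the mean and SD over wells as a bar and the median of all unrepeated probes of both columns as a dotted line. On the obese-3 array all 11 wells lie between 0.49 and 0.58, above the dotted line at 0.17, and on the obese-5 array most wells of column 17 lie below those of column 18.

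The place of the gene among other probes differed from array to array. As deposited, the mean of the 11 wells on the obese-3 array was higher than 98.1% of 18134 probes without repeated values, and higher than 97.6% of the 1692 among them in well columns 17 and 18. On the obese-4 array it was higher than 17.6% of such probes and 18.8% of those in the same columns. On obese-5 these shares were 48.0% and 68.1%, and on obese-1 they were 66.0% and 48.8%. After turning, these shares were 1.92% and 2.36% on obese-3 and 34.0% and 51.2% on obese-1, while those on obese-5 and obese-4 are the same under both readings. The columns themselves had a median log2 ratio as deposited of -0.06, -0.06, 0.17 and 0.07 on the obese-5, obese-4, obese-3 and obese-1 arrays. After subtraction of well-position medians taken over unrepeated values, the 11 wells averaged 0.14, -0.15, 0.37 and -0.0057 on these arrays in the same order. As deposited, the obese-3 array stayed the highest and the obese-4 array the lowest. After turning, the same means were 0.14, -0.15, -0.37 and 0.0057, with the obese-3 array the lowest and the obese-5 array the highest.

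The 5 wells with repeated values behaved differently. On obese-5 their log2 ratios as deposited were -2.85 in 73D17, -1.85 in 73O17, -1.49 in 73O18, 0.15 in 73P17 and -2.85 in 73P18, a mean of -1.78 (SD 1.24). On obese-4 they were -2.67, -2.67, 1.66, -1.67 and -3.67 in the same order of wells, a mean of -1.80 (SD 2.06). All but 1 well was negative on each of these arrays, where obese RNA was in Cy5. On obese-3 they were 1.48, 2.65, 3.38, 1.06 and 0.06, a mean of 1.72 (SD 1.31). On obese-1 they were 0.46, 1.00, 0.26, 4.00 and 1.00, a mean of 1.34 (SD 1.52). All 5 were positive on both arrays with obese RNA in Cy3. The pooled SD between these wells was 1.56, which is wider than the whole range of 0.74 between the array means of the other 11.

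The values in these wells were small whole-number ratios. The commonest value of each array lay at a log2 ratio of -1.85 on obese-5, -1.67 on obese-4, 1.06 on obese-3 and 1.00 on obese-1, and was held by 202, 247, 245 and 261 probes. With that value taken as a ratio of 1, all 20 values of these 5 wells equalled 1 whole number over another, neither above 30, within a relative tolerance of 1e-05. For 73O17 on obese-5 and obese-1, 73P17 on obese-4 and obese-3, and 73P18 on obese-1 this was fixed, as they held the commonest value itself. Of distinct values held by 1 probe, 0.409% to 0.455% were such ratios, and of those held by at least 5 probes, 20.9% to 32.4%. These shares count each distinct value once, so they cannot be set directly against the 20 well values. Well 73O17 lay at 1 on obese-5, at 0.5 on obese-4, at 3 on obese-3 and at 1 on obese-1. Well 73O18 lay at 9 to 7, 10 to 1, 5 to 1 and 3 to 5 on the same arrays, and 73P17 at 4, 1, 1 and 8. No well held 1 ratio on all 4 arrays. Well 73D17 lay at 1 to 2, 1 to 2, 4 to 3 and 11 to 16, and 73P18 at 1 to 2, 1 to 4, 1 to 2 and 1. Measured from the commonest value of its array, the mean log2 ratio of the 5 wells was 0.07 on obese-5 (SD 1.24), -0.14 on obese-4 (SD 2.06), 0.66 on obese-3 (SD 1.31) and 0.34 on obese-1 (SD 1.52). Each of these means is smaller than the spread between the wells.

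**Figure D3:**
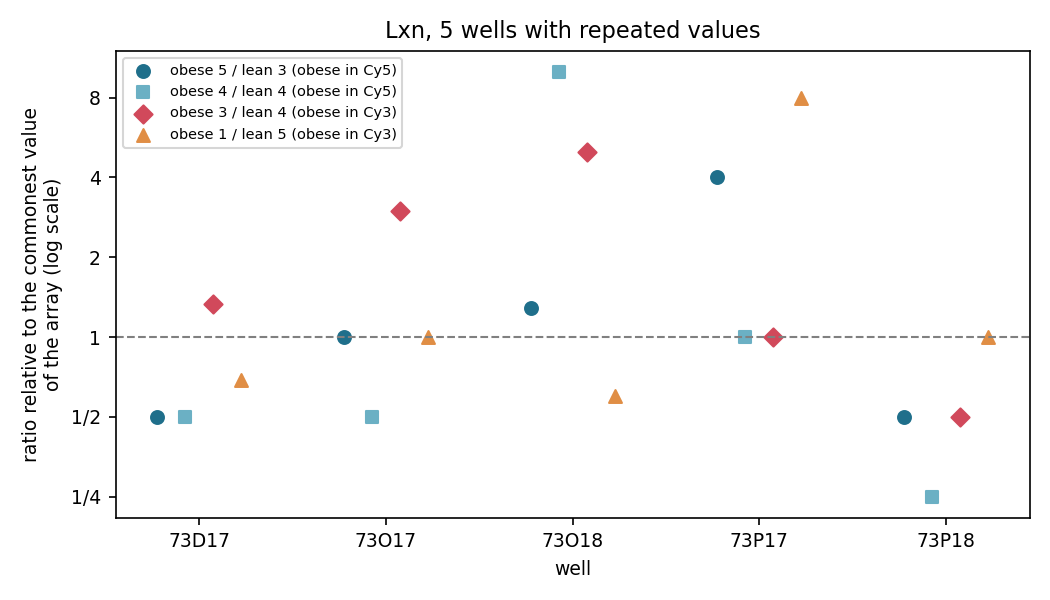
Ratio of each of the 5 wells with repeated values to the commonest value of its array (vertical axis, log scale) by well (horizontal axis), with 1 symbol for each array. All 20 points are ratios of small whole numbers, between 1 to 4 and 10 to 1, and the array with the highest ratio differs between wells.

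Over all 16 wells, the mean log2 ratio as deposited was -0.51 on obese-5, -0.70 on obese-4, 0.91 on obese-3 and 0.46 on obese-1. The sign thus followed the dye of the obese RNA on all 4 arrays. Read as Cy5 over Cy3, the ratio of obese over lean was 0.701, 0.614, 0.533 and 0.725 on these arrays. The mean of the alternating contrast was -0.65 (SD 0.20, n = 4 arrays), which is the value for which the gene was selected. Over the 11 wells without repeated values the same reading gave 1.04, 0.868, 0.689 and 0.956 for obese over lean, with a mean log2 ratio of -0.19 (SD 0.26, n = 4) that was negative on 3 of 4 arrays and smaller than its SD. Without the obese-3 array this mean was -0.07, and with well-position medians of unrepeated values subtracted it was -0.10. After turning, the wells with repeated values lay below the rest on each array, by a mean difference of -1.52 (SD 0.27, n = 4). With the median over 16 wells in place of the mean, the alternating contrast was -0.20 (SD 0.27).

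After turning, 3 of the 5 wells with repeated values and 2 of the other 11 were negative on 4 of 4 arrays. The share of all probes negative on 4 of 4 arrays is not given, so these counts only describe the wells.

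**Figure D4:**
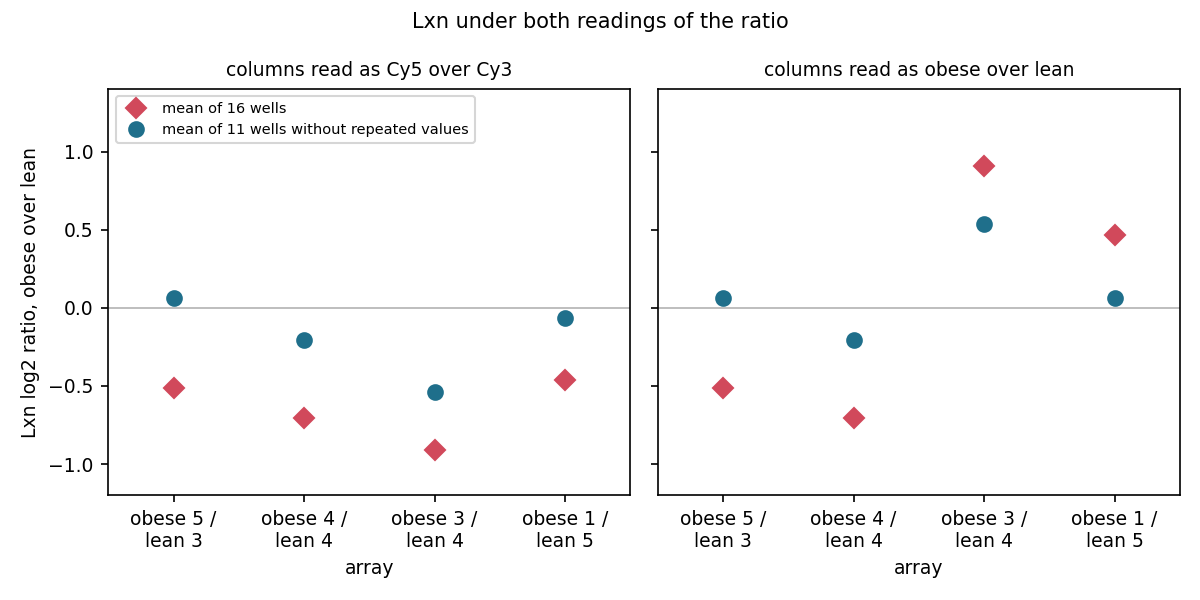
Mean log2 ratio of Lxn, obese over lean (vertical axis), on each array (horizontal axis), if the deposited columns hold Cy5 over Cy3 (left) or obese over lean (right), with the mean of 16 wells as diamonds and of the 11 wells without repeated values as circles. On the left the diamonds are all negative, between -0.91 and -0.46, and the circles lie between -0.54 and 0.06. On the right both kinds of symbol fall on either side of 0.

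The common contrast did not select the gene and was tested with limma in a table of 28553 rows, with the wells of each named gene averaged and Benjamini-Hochberg adjustment over all rows. If the columns hold obese over lean, this contrast measures obesity. Over 16 wells the mean was 0.04 (SE 0.30, 95% interval -0.71 to 0.79, adjusted p = 1.00), and it was positive on 2 of 4 arrays. Over the 11 wells without repeated values it was 0.11 (SE 0.14, 95% interval -0.24 to 0.47, limma adjusted p = 1.00), and positive on 3 of 4 arrays. The ratio of obese over lean was then 1.04 on obese-5, 0.868 on obese-4, 1.45 on obese-3 and 1.05 on obese-1. The difference is within the spread between arrays, and the interval leaves room for a change anywhere from -0.24 to 0.47 on the log2 scale. Without the obese-3 array the mean was -0.03 (limma adjusted p = 0.995), so its sign rested on that array. By single wells, limma called 0 of 16 in this contrast, against 0% of all 28702 probes. At an unadjusted p below 0.05, limma likewise gave 0 of 16, against 0.951% of all probes.

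The obese-3 and obese-4 arrays share lean rat 4, which was in Cy5 on the first and in Cy3 on the second. Read as Cy5 over Cy3, the 11 wells gave obese over lean as -0.54 on the obese-3 array and -0.20 on the obese-4 array. The difference of the obese-3 from the obese-4 array was -0.33. Read as obese over lean, the 11 wells gave 0.54 on obese-3 and -0.20 on obese-4, a difference of 0.74. The obese rat and its dye changed together between these arrays. Under either reading the difference therefore mixes any dye effect of the gene with the animals, and cannot be assigned to the obese rats. For obese rats 5 and 4, with obese RNA in Cy5, both readings give the same values. With the arrays of lean rat 4 averaged into 1 replicate, the alternating contrast over the 11 wells was -0.12 (SD 0.22, n = 3) and the common contrast was 0.10 (limma adjusted p = 1.00, n = 3).

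The pathway of latexin could not be followed further. Of 13 listed genes of metallocarboxypeptidases and of latexin and cystatin kin, among them the mast cell carboxypeptidase gene Cpa3 and the latexin relative Rarres1, 0 were named on the array. Among the other 9 named genes, likeness to Lxn was measured as the root mean square distance between the mean log2 ratios as deposited over the 4 arrays. Over wells without repeated values, Gapdh, which encodes a glycolytic enzyme, was nearest at 0.11 (10 wells), followed by Actb, which encodes beta-actin, at 0.20 (9 wells). Over all wells the nearest were Tcf3, which encodes an E-protein transcription factor, at 0.44, and Ldha, which encodes lactate dehydrogenase A, at 0.45. Only 1 of the 16 wells of Tcf3 was without repeated values, against 11 of those of Ldha. The order of likeness thus changed with the wells with repeated values.

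Without repeated values, Gapdh was at -0.04, -0.31, 0.42 and -0.07 on the obese-5, obese-4, obese-3 and obese-1 arrays. The ratio of Lxn was higher than that of Gapdh by 0.10 on obese-5, 0.10 on obese-4, 0.12 on obese-3 and 0.13 on obese-1. This difference of log2 ratios does not depend on the centring of the arrays, and its mean was 0.11 (SD 0.01, n = 4). After turning, it averaged -0.01 (SD 0.13). Gapdh was picked as the nearest of 9 genes, so the closeness is a description. Of 17993 unnamed probes with 4 unrepeated values, 1.82% lay as close to Lxn as Gapdh did. Of these unnamed probes 15.7% had a lower mean after turning than the 11 wells of Lxn, and 80.1% had a lower mean as deposited. Each unnamed probe is 1 spot, while Lxn and Gapdh are means over 11 and 10 wells, so these shares are not like for like.

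As deposited, Lxn was the highest of the 10 named genes on the obese-3 array, both over all wells and without repeated values, and after turning it was the lowest of the 10 there. Over all wells it was the lowest on obese-4 under both readings, and on obese-1 it was the highest as deposited and the lowest after turning. On obese-5 it was not at an extreme over all wells. It ranked 8 of 10 from the top there under both readings, at -0.51, with Gapdh (-0.58) and Tcf3 (-0.65) lower. Without repeated values, where Tcf3 is left with 1 well, Lxn ranked 8 of 10 from the top on obese-4 and 6 of 10 on obese-5 under both readings. On obese-1 it then ranked 3 of 10 as deposited and 8 of 10 after turning. In the alternating contrast it had the lowest mean of the 10 over all wells (-0.65, followed by Tcf3 at -0.36). Without repeated values Ldha had the lowest mean (-0.24, SD 0.25), followed by Lxn (-0.19, SD 0.26) and Gapdh (-0.18, SD 0.23), which are closer together than the spread of any of them between arrays.

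**Figure D5:**
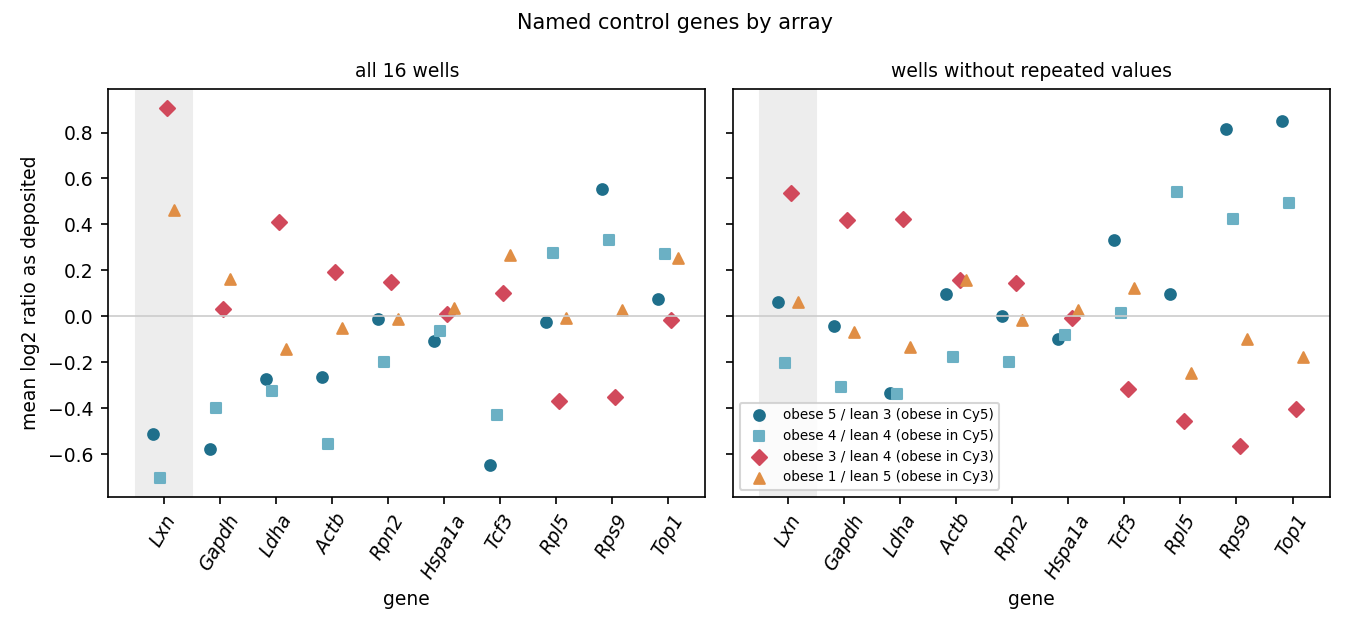
Mean log2 ratio as deposited (vertical axis) of the 10 named genes (horizontal axis) on the 4 arrays, 1 symbol for each array, over all 16 wells (left) and over wells without repeated values (right). The shaded gene is Lxn, which spreads from -0.70 to 0.91 on the left and from -0.20 to 0.54 on the right. On the right Gapdh, Ldha and Rpn2 also have their highest value on obese-3 and their lowest on obese-4, and Tcf3 is shown from 1 well.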

How the data were processed

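Each of the 4 arrays has 1 deposited column of log10 ratios, per the file headers 1 value per probe. That the values are log10 follows from the whole-number spacing of repeated values. The column means are 0, so the values were centred before deposition, at a step that is not given. Scanner, image software, background correction and further normalization, like the numerator, were not given in the sources used here. Without intensities, signal over background is unknown, and precision is limited by having 4 arrays. All values were converted to log2. Probes with 4 values (28702) were fitted with limma 3.58.1 (R 4.3.3, lmFit and eBayes, Benjamini-Hochberg, threshold 0.05), which was tested on simulated data. A well was left out on all arrays if its value was held by at least 5 probes on any array. Position groups were the 24 well columns by odd or even well row (48 groups). Symbols Gapd and Tcfe2a were updated to Gapdh and Tcf3. The array is the replicate, and 2 arrays share lean rat 4. The p-values measure only spread between arrays, with the variance of each row moderated by limma over all rows. An exact sign-flip test, whose smallest two-sided p is 0.125 here, was not used. The gene, the lists and the tests were chosen with earlier results of these data known. Named genes were Lxn and, for all wells and for wells without repeated values, the 2 nearest genes by root mean square distance, besides genes named for rank. Alternatives covered the reading of the ratio, centring, scaling, quantile normalization, position and plate medians, the median over wells, the limit for a repeated value, lean rat 4 counted once, a dye term, a robust fit and each array left out. Leaving out rows O and P, or well 73L17, was added after seeing the data.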

Additional observations from a re-analysis of the deposited data

Results flagged for a closer look

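Among 38 sets of 4 array values of Lxn, 1 contained an array that stood apart, and about 1.9 would do so by chance. That set was the mean over the 5 wells with repeated values after turning, at -1.78, -1.80, -1.72 and -1.34 on the obese-5, obese-4, obese-3 and obese-1 arrays. The gap of the obese-1 array to the closest other array made up 0.832 of their range, and the means rest on wells with an SD of 1.24 to 2.06 within each array.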

How the results depend on the processing

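The alternating contrast over 16 wells (-0.65) moved by more than its SD when the sign was turned on no array (0.039), with the median over wells (-0.20) and without the wells of rows O and P (-0.33, chosen after seeing the data). It lay between -0.71 and -0.55 in the other 12 alternatives, and between -0.71 and -0.56 with 1 array left out. Over the 11 wells without repeated values (-0.19), it was 0.11 with the sign turned on no array and between -0.27 and -0.07 in the other 17 alternatives, which include each array left out, and well 73L17 left out (-0.17, chosen after seeing the data). It was -0.09 and -0.10 with well-position medians over all or over unrepeated values subtracted. The common contrast over 16 wells (0.04) changed sign with the turned reading (-0.65) and without the obese-3 array (-0.25) or the obese-1 array (-0.10), and with 1 array left out ranged from -0.25 to 0.29. Over 11 wells (0.11) it changed sign with the turned reading (-0.19) and without the obese-3 array (-0.026), and with 1 array left out ranged from -0.026 to 0.22. The lowest limma adjusted p of the common contrast over its tested alternatives was 0.981 for 16 wells and 0.967 for 11 wells, both with a dye term in the fit. The difference of repeated from other wells (-1.52) was -0.19 with the sign turned on no array and -1.63 to -1.40 in the other 15 alternatives. The causes of these changes were not tested. Each value is itself a ratio within 1 obese and lean pair, so no further replicate block was fitted.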
